A study of Bos taurus with 40 samples.

Results

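The 10 vascular genes described here were followed through the bovine endometrium: the ligands VEGFA and ANGPT2, the receptors KDR, FLT1 and TEK, the transcription factor ERG, the surface and junction proteins CDH5, PECAM1 and EMCN, and the secreted protein VWF. They were chosen by name, with earlier results of these data known, as 10 of the 32671 named genes of the deposited count table, and all 10 were present and passed the filter on low counts. VEGFA binds the receptor tyrosine kinases KDR (VEGF receptor 2) and FLT1 (VEGF receptor 1) on endothelial cells, where KDR carries most of the growth signal and FLT1, also made as a soluble form, holds VEGFA back. The angiopoietin receptor TEK (Tie2) keeps resting vessels stable, and ANGPT2, which endothelial cells release themselves, mostly counteracts it during remodelling. The endometrium is one of the few adult tissues that rebuilds its blood vessels with every cycle, and in cattle it does so under progesterone from the corpus luteum of one ovary.

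RNA was sequenced from homogenised endometrium of the uterine horn on the side of the corpus luteum (ipsilateral) and of the horn on the other side (contralateral), taken from 20 synchronized heifers at slaughter. The groups were ipsilateral day 5, 7, 13 and 16 and contralateral day 5, 7, 13 and 16, with 5 libraries each. Days are counted from estrus in the design text and called days of pregnancy in the sample labels, and no treatment, breed or age is given in the sources used here. The study's title asks whether the horns differ in ways that bear on conceptus growth. Because each library is whole tissue, fewer endothelial cells and less RNA per endothelial cell cannot be told apart in any value below.

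The libraries held 27.03 M to 64.4 M counted reads, and the members' counts ran between 177 (ANGPT2) and 14667 (KDR). Levels are given as CPM, the reads of a gene per M reads of its library after scaling between libraries with TMM factors, which do not correct for gene length, so levels are compared between samples and not between genes. All 10 genes were counted in every library, and so were the platelet list's ITGA2B (7.95 to 30.7 CPM), GP9 (11.3 to 26.2 CPM) and TUBB1 (0.226 to 1.62 CPM) and the red cell list's AHSP (0.368 to 1.83 CPM). The other platelet genes were at 0 in some libraries and reached at most 0.0531 CPM (PPBP), 0.306 CPM (PF4), 0.170 CPM (GP1BA) and 0.620 CPM (GP1BB), and the haemoglobin gene HBB reached at most 1.48 CPM. Several libraries stood apart. Along the first principal component of the 2000 most variable genes, which carried 47.6% of the variance, ipsilateral day 16 library 5-137 lay at 8.13, whereas the other libraries of day 16 in both horns lay between 35.1 and 45.4. The ipsilateral day 5 library 8-1350 had a summed level of 8 smooth muscle markers of 3290 CPM, against at most 715 CPM in the other libraries of its group. Calls on the 10 genes that it or 5-137 changes are marked below. Counts of other listed genes include both libraries. Some calls in them were lost without 5-137, such as MMRN2 for ipsilateral day 16 against day 5 (adjusted p = 0.0601 by edgeR). Tests were edgeR quasi-likelihood tests with Benjamini-Hochberg adjustment over all genes tested and a threshold of 0.05, and ± after a log2 fold change is its standard error.

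**Figure D1:**
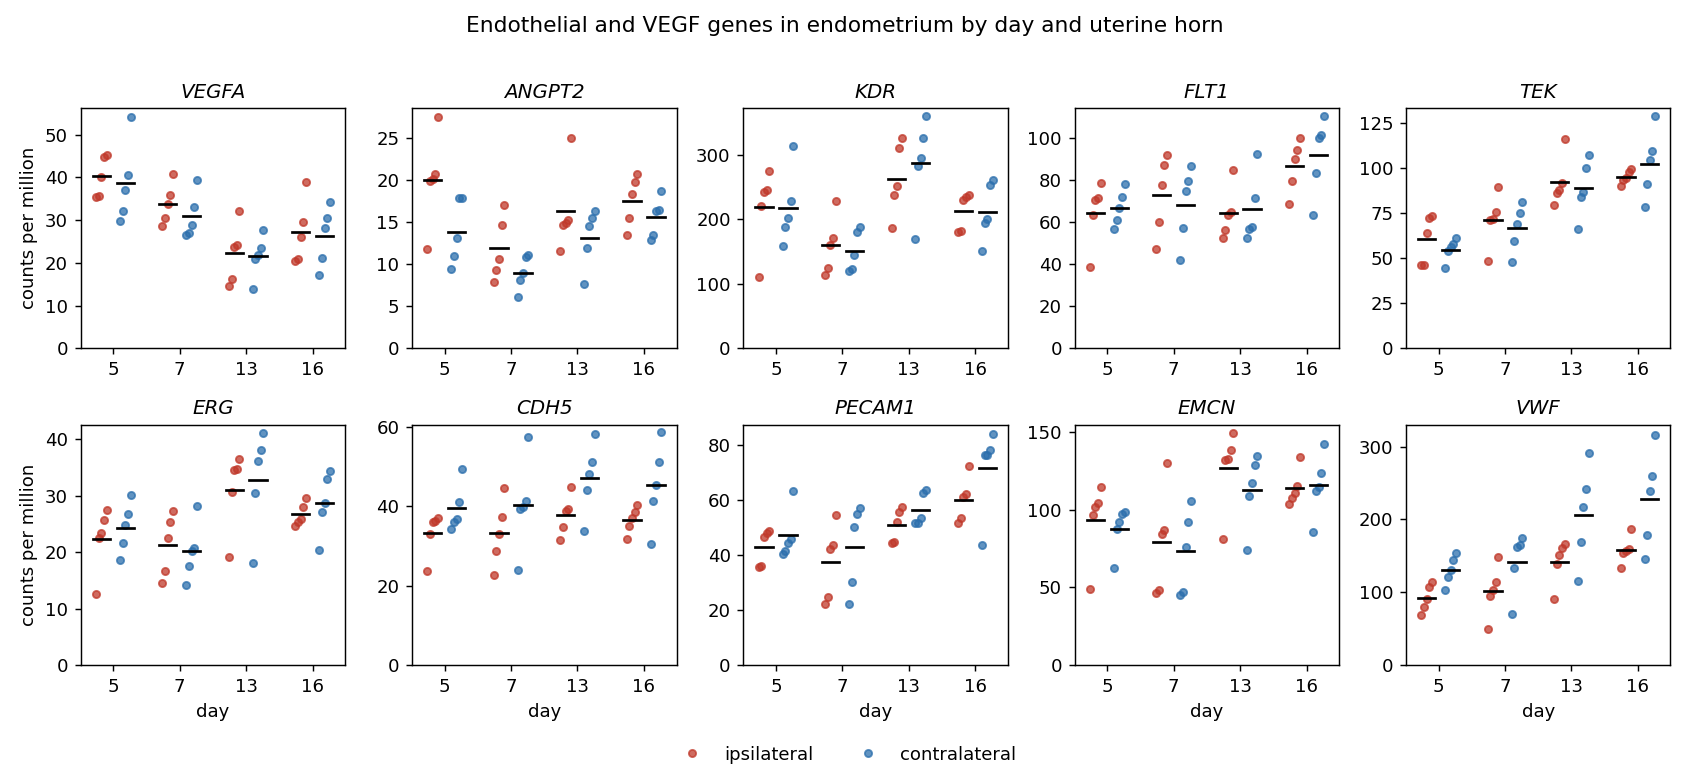
Level of each gene in every library, in CPM on a linear axis from 0, by day (x axis) and horn (red, ipsilateral; blue, contralateral; 5 points each), with a black bar at the group mean. VEGFA lies lowest on days 13 and 16, TEK and VWF lie highest there, and KDR and ANGPT2 are lowest on day 7.

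Between days 7 and 13 the ligand VEGFA and its main receptor KDR moved in opposite directions in the ipsilateral horn, VEGFA lower and KDR higher on day 13. In the contralateral horn KDR was higher too, and VEGFA missed the threshold. TEK and VWF were higher on day 16 than on day 5 in both horns, and VWF and CDH5 were lower and ANGPT2 higher in the ipsilateral horn when the days were averaged. In a test of any difference among the 4 days, 5 of the 10 genes passed in the ipsilateral horn (KDR, VEGFA, PECAM1, VWF and TEK), where 54.9% of 19733 tested genes passed. Contralaterally 8 of the 10 passed (all but FLT1 and CDH5), against 55.3% of 19559 genes. The horns of a day come from the same heifers by their labels, so the second horn is not an independent repeat of the first. KDR passed narrowly in the ipsilateral horn (adjusted p = 0.0495 by edgeR) and lost the call without each of 17 of the 20 libraries, all but 8-1350, 6-338 and 5-167 (adjusted p up to 0.148). Contralateral EMCN and ERG (adjusted p = 0.0392 and 0.0382 by edgeR) each lost it without 13 of the 20 libraries. For both these were all but day 5 libraries 1-315, 7-300 and 8-1350, day 7 library 2-1337, day 13 library 5-140, day 16 library 3-155 and a further one, day 7 library 4-064 for EMCN and day 16 library 7-107 for ERG (adjusted p up to 0.0944). PECAM1 (adjusted p = 0.0219 ipsilateral, 0.0265 contralateral) lost it without ipsilateral library 4-064 or 7-107 or contralateral library 2-068, 5-137, 7-107, 8-245 or 5-117 (adjusted p up to 0.0764), and contralateral ANGPT2 (adjusted p = 0.0259) without 6-338, 2-371 or 5-117 (adjusted p up to 0.0853). Without ipsilateral library 5-137, 4 of the 10 genes passed in that horn, while 10781 of all tested genes passed, against 10825 with it. Without 8-1350, 6 of the 10 passed, and the share of all genes in that fit is not given here.

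VEGFA, the ligand that starts vessel sprouting, had group means of 40.2, 33.9, 22.2 and 27.1 CPM in the ipsilateral horn on days 5, 7, 13 and 16, and 38.7, 30.9, 21.6 and 26.2 CPM in the contralateral horn. On day 13 the ipsilateral libraries held 14.7, 16.3, 23.6, 24.2 and 32.2 CPM, against 28.6, 30.5, 33.7, 35.9 and 40.8 CPM on day 7. Of the 5 day 13 libraries, 4 lay below all day 7 libraries, and the highest, 6-203, lay within their range. The fall by 0.59 ± 0.20 on the log2 scale passed (adjusted p = 0.0301 by edgeR), and was lost without any 1 of the ipsilateral libraries 5-140, 4-1314 and 5-117 (adjusted p up to 0.0601). Contralateral day 13 libraries gave 13.9, 20.99, 21.7, 23.4 and 27.7 CPM, against 26.4, 27.1, 28.8, 33.1 and 39.3 CPM on day 7. There too 4 of 5 lay below every day 7 library, and the log2 change of -0.52 ± 0.20 missed the threshold (adjusted p = 0.0528 by edgeR). With DESeq2 it passed (adjusted p = 0.0323). A second entry of the name VEGFA in the table, of which the sources used here give no origin, had lower levels and fell by 0.86 ± 0.22 in the ipsilateral horn and by 0.62 ± 0.22 in the contralateral horn over the same interval (adjusted p = 0.00557 and 0.0336 by edgeR). How reads shared between the entries were counted is not given, so it is no separate support.

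KDR, the main signalling receptor for VEGFA, was lowest on day 7 and highest on day 13. Its ipsilateral means were 219, 160, 263 and 214 CPM on days 5, 7, 13 and 16, and its contralateral means 218, 151, 287 and 212 CPM. On day 13 the ipsilateral libraries held 187, 238, 251, 311 and 326 CPM, against 114, 125, 161, 171 and 229 CPM on day 7. The lowest of day 13, 5-167, lay within the day 7 range and the other 4 above it. The difference of 0.73 ± 0.22 passed (adjusted p = 0.0155 by edgeR), but not without 1 of the ipsilateral libraries 5-117, 4-064, 4-1314 or 6-203 (adjusted p up to 0.0569). The contralateral libraries of day 13 gave 169, 282, 296, 327 and 360 CPM, against 120.0, 123, 145, 180 and 188 CPM on day 7. Here 5-140 alone lay within the day 7 range. The difference of 0.92 ± 0.21 (adjusted p = 0.00192 by edgeR) was kept without each of the 20 libraries in turn (adjusted p up to 0.008) and under every other setting run. The earlier drop, day 7 against day 5, was -0.46 ± 0.22 in the ipsilateral and -0.52 ± 0.21 in the contralateral horn and missed the threshold in both (adjusted p = 0.117 and 0.0816 by edgeR). Without library 8-1350, low on day 5 in both horns, each of them passed, with -0.63 ± 0.18 (adjusted p = 0.0189) and -0.62 (adjusted p = 0.0458).

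For FLT1, the receptor that limits VEGFA, no comparison between days passed with all libraries of a horn. Its means were 64.4, 72.7, 64.2 and 86.3 CPM in the ipsilateral horn and 66.8, 67.9, 66.0 and 91.5 CPM in the contralateral horn on days 5, 7, 13 and 16. On day 16, against day 5, 4 of 5 libraries in each horn lay above all those of day 5, with differences of 0.43 ± 0.19 and 0.46 ± 0.19 that missed the threshold (adjusted p = 0.0838 ipsilateral and 0.0571 contralateral by edgeR). The contralateral difference passed without library 6-338, 3-155, 7-300 or 6-203 (adjusted p = 0.026 to 0.05), and with the horns summed per heifer it was 0.43 (adjusted p = 0.0223). Counts per gene do not separate the membrane and soluble forms.

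TEK, the angiopoietin receptor, was higher on day 16 than on day 5 in both horns. Its means were 60.6, 71.4, 92.3 and 95.3 CPM in the ipsilateral and 54.8, 66.6, 89.0 and 103 CPM in the contralateral horn. On day 16 the ipsilateral libraries held 90.1, 93.7, 94.8, 98.0 and 99.8 CPM, against 46.5, 46.6, 63.9, 72.3 and 73.7 CPM on day 5. On the contralateral side day 16 gave 78.4, 91.1, 105, 109.8 and 129 CPM, against 44.4, 54.0, 56.5, 57.9 and 61.2 CPM on day 5. The days did not overlap in either horn. Day 16 was set directly against day 5 only after the group means had been seen, and TEK was higher by 0.66 ± 0.15 and 0.91 ± 0.16 (adjusted p = 0.00229 ipsilateral and 9.52e-05 contralateral by edgeR). Both held without each library in turn (adjusted p up to 0.00917 and 0.000412) and under the other settings run for day changes. A fit with the share of reads in microRNA and tRNA genes as a covariate was run for horn differences only. Of the steps between, only day 13 against day 7 in the contralateral horn passed (0.42 ± 0.15, adjusted p = 0.0425), and it was lost without 11 of the 20 libraries, among them day 7 libraries 6-338, 4-064 and 5-117 and day 13 libraries 8-275, 4-1314, 5-167 and 6-203 (adjusted p up to 0.131).

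ANGPT2, the ligand that opposes TEK signalling, had its lowest means on day 7. Its means were 20.02, 11.9, 16.3 and 17.6 CPM in the ipsilateral and 13.9, 9.03, 13.2 and 15.6 CPM in the contralateral horn on days 5, 7, 13 and 16. The ipsilateral day 7 libraries held 7.87, 9.36, 10.6, 14.7 and 17.1 CPM, against 11.8, 19.9, 20.1, 20.7 and 27.5 CPM on day 5. All day 7 libraries lay below the 4 higher ones of day 5, and the lowest of day 5, 8-1350, overlapped them. It fell by 0.75 ± 0.24 (adjusted p = 0.0233 by edgeR), the one gene of the 10 to pass in this comparison, in which 28.8% of all tested genes passed. The call was lost without day 7 library 5-117, 2-371 or 4-064 or day 5 library 3-175 (adjusted p up to 0.0865), and without 8-1350 the change was -0.90 ± 0.23 (adjusted p = 0.00881). On the contralateral side none of the 10 passed by edgeR in this comparison, against 20.4% of all tested genes. At an unadjusted p below 0.05 there were 2, KDR and ANGPT2, beside 6501 of all 19559 tested genes. DESeq2 called 1, ANGPT2, and its share of all genes is not given here. The contralateral ANGPT2 difference was -0.61 ± 0.22 (adjusted p = 0.0523 by edgeR, 0.0331 by DESeq2).

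**Figure D2:**
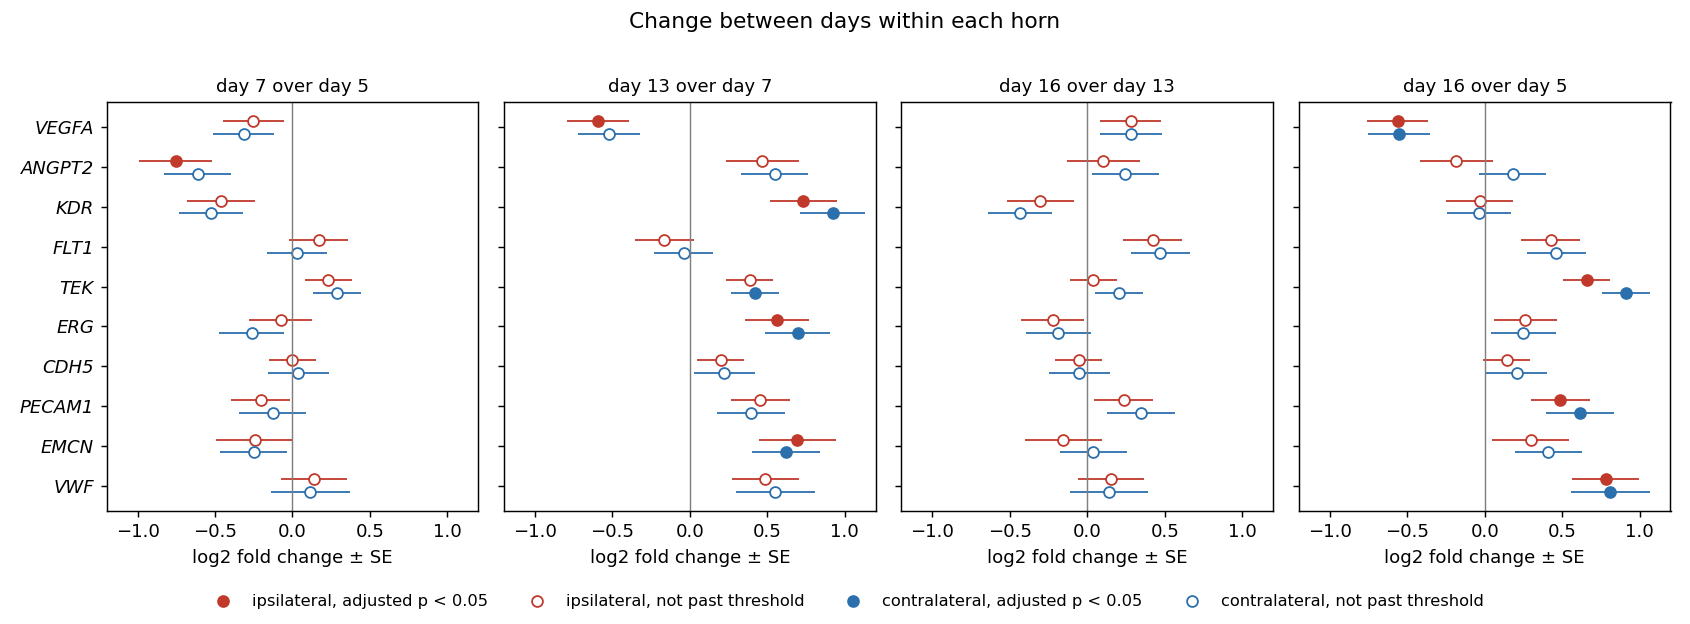
Log2 fold change with its standard error (x axis) of each gene between days, later over earlier, in the ipsilateral (red) and contralateral (blue) horn, with filled points where the adjusted p was below 0.05. KDR, EMCN and ERG are filled in both horns for day 13 over day 7, no point is filled for day 16 over day 13, and TEK, VWF, PECAM1 and VEGFA are filled in both horns for day 16 over day 5.

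Between days 7 and 13, 4 of the 10 genes passed in each horn, while 28.6% of all tested genes passed in the ipsilateral and 33.5% in the contralateral horn. KDR, EMCN and ERG were higher in both horns, VEGFA was lower in the ipsilateral horn and TEK higher in the contralateral horn. The median log2 change of the 10 genes was 0.46 ipsilateral and 0.48 contralateral. Scaling between libraries holds the median over all tested genes near 0 (0.03 and 0.01), while their median absolute change was 0.32 and 0.33. The 10 genes were chosen with earlier results known and mostly vary together, so their median is a description only. Between days 13 and 16 none of the 10 passed by edgeR or DESeq2 in either horn, where 0.446% of all tested genes passed in the ipsilateral and 1.68% in the contralateral horn. At an unadjusted p below 0.05 there were 1 in the ipsilateral horn (FLT1) and 2 in the contralateral horn (KDR and FLT1). Among all tested genes, 2213 of 19733 in the ipsilateral and 2556 of 19559 in the contralateral horn were at an unadjusted p below 0.05. Between days 7 and 13, 2 of 9 epithelial markers were higher and 3 lower in the ipsilateral horn and 2 higher and 2 lower in the contralateral horn. Of 8 stromal markers 1 was higher and 1 lower in the ipsilateral and 1 higher and 2 lower in the contralateral horn, and of 8 smooth muscle markers 0 changed in the ipsilateral and 1 was higher in the contralateral horn. The part of these tissues in the vascular values was not tested. Adjacent comparisons share the libraries of the day between them and are not independent.

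ERG, a transcription factor that maintains endothelial identity, and EMCN, a sialomucin of venous and capillary endothelium, were higher on day 13 than on day 7 in both horns, as KDR was. EMCN averaged 127 ± 26.3 CPM on day 13 in the ipsilateral horn, against 79.1 ± 34.2 CPM on day 7 (SD, n = 5 each). The day 13 libraries held 81.2, 132, 133, 138 and 149 CPM, against 46.6, 48.2, 84.2, 86.8 and 130 CPM on day 7. The day 7 values were the most spread of any gene and group, with a coefficient of variation of 43.2%. Contralateral day 13 libraries gave 74.0, 109, 117, 129 and 135 CPM, against 44.9, 47.3, 76.3, 92.3 and 106 CPM on day 7. The differences were 0.69 ± 0.25 and 0.62 ± 0.22 (adjusted p = 0.0443 ipsilateral and 0.0342 contralateral by edgeR). The ipsilateral call was lost without 17 of the 20 libraries, all but 5-167, 6-338 and 8-1350 (adjusted p up to 0.138; 0.0621 without 5-137), and with RLE scaling or no filter. The contralateral call was lost without day 7 library 6-338, 2-371 or 5-117 or day 13 library 8-275, 4-1314, 5-167 or 6-203 (adjusted p up to 0.0943).

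ERG averaged 31.1 ± 7.01 CPM on day 13 in the ipsilateral horn, against 21.3 ± 5.51 CPM on day 7. Contralaterally it averaged 32.7 ± 9.08 CPM on day 13, against 20.2 ± 5.18 CPM on day 7 (SD, n = 5 each). The differences were 0.56 ± 0.20 and 0.70 ± 0.21 (adjusted p = 0.0455 and 0.0148 by edgeR). The ipsilateral call was lost without the same 17 libraries as that of EMCN (adjusted p up to 0.151; 0.0663 without 5-137), while the contralateral call held without each library in turn (adjusted p up to 0.0432).

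CDH5 (VE-cadherin), the adhesion protein of endothelial junctions, passed no day test. Its means lay between 33.2 and 37.8 CPM in the ipsilateral horn and between 39.5 and 47.1 CPM in the contralateral horn, and its log2 changes between adjacent days between -0.06 and 0.22. PECAM1 (CD31), an adhesion molecule of endothelium that is also on platelets and leukocytes, passed for day 16 against day 5 in both horns. On day 16 the ipsilateral libraries held 51.6, 53.4, 61.2, 62.2 and 72.4 CPM, against 35.7, 36.1, 46.6, 48.2 and 48.8 CPM on day 5. These did not overlap, but the difference of 0.49 ± 0.19 (adjusted p = 0.0495 by edgeR) was lost without 17 of the 20 libraries, all but day 7 libraries 2-371, 4-064 and 5-117 (adjusted p up to 0.124; 0.0551 without 5-137 and 0.0605 without 8-1350). In the contralateral horn day 16 gave 43.7, 76.5, 76.6, 78.3 and 84.2 CPM, against 40.6, 41.7, 44.5, 45.9 and 63.2 CPM on day 5. There 3-155 alone lay within the day 5 range. That difference of 0.62 ± 0.22 (adjusted p = 0.0282 by edgeR) was lost without day 5 library 3-175, 8-1350, 1-315 or 4-184 or day 16 library 2-068, 5-137, 7-107 or 8-245 (adjusted p up to 0.0758). The summed level of 7 white blood cell markers ran from 113 to 148 CPM on ipsilateral day 16, against 70.4 to 248 CPM on ipsilateral day 5, and from 111 to 167 CPM on contralateral day 16, against 115 to 215 CPM on contralateral day 5. Their part in the PECAM1 difference was not tested.

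VWF, the clotting glycoprotein that endothelial cells store and platelets carry, was higher on day 16 than on day 5 and lay lower on average in the ipsilateral horn. On day 16 the ipsilateral libraries held 133, 154, 157, 160 and 187 CPM, against 68.6, 79.9, 91.1, 108 and 114 CPM on day 5. On the contralateral side day 16 gave 146, 179, 239, 260.3 and 316 CPM, against 104, 121, 131, 144 and 154 CPM on day 5. The days did not overlap in the ipsilateral horn, and in the contralateral horn 3-155 alone lay within the day 5 range. The differences were 0.78 ± 0.22 and 0.81 ± 0.25 (adjusted p = 0.00779 and 0.0144 by edgeR), and each held without every library in turn (adjusted p up to 0.0279 and 0.0495). With VEGFA, PECAM1 and TEK, 4 of the 10 genes passed for day 16 against day 5 in each horn, where 38.9% of all tested genes passed in the ipsilateral and 43.8% in the contralateral horn. VEGFA fell by 0.56 ± 0.20 in the ipsilateral and by 0.55 ± 0.20 in the contralateral horn (adjusted p = 0.0301 and 0.0314 by edgeR). Over the same interval 5 of 8 stromal and 5 of 8 smooth muscle markers were lower in the ipsilateral horn, and 4 and 2 of 8 in the contralateral horn, where 1 stromal marker was higher. The ipsilateral smooth muscle sum was 238 to 652 CPM on day 16. On day 5 it was 3290 CPM in 8-1350 and 569 to 715 CPM in the other libraries. The summed stromal level ran from 12575 to 19248 CPM on ipsilateral day 16, against 22411 to 32672 CPM on ipsilateral day 5, and from 16492 to 22225 CPM on contralateral day 16, against 30382 to 51176 CPM on contralateral day 5. The part of this shift in the 4 vascular calls was not tested. The platelet gene ITGA2B was higher as well, by 0.99 ± 0.17 in the ipsilateral and 0.83 ± 0.11 in the contralateral horn, and GP9 was lower, by a log2 change of -0.43 ± 0.08 and -0.63 ± 0.12 (adjusted p up to 0.00058 by edgeR). The VEGFA call was lost without ipsilateral library 2-068, 3-155, 1-315 or 3-175 (adjusted p up to 0.0792) and without contralateral library 8-1350, 1-315, 5-137 or 7-107 (adjusted p up to 0.109).

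On no single day did any of the 10 genes differ between the horns by edgeR or DESeq2, while 22.7%, 11.7%, 5.72% and 4.53% of 20356 tested genes did on days 5, 7, 13 and 16. At an unadjusted p below 0.05 there were 2 on day 5 (VWF and ANGPT2), 0 on day 7 and 1 each on days 13 and 16 (VWF). Of the 20356 tested genes, 6890, 4852, 3654 and 3255 were at an unadjusted p below 0.05 on days 5, 7, 13 and 16. ANGPT2 on day 5 passed without 8-1350 (0.67 ± 0.23, adjusted p = 0.0355 by edgeR), against 0.53 ± 0.23 (adjusted p = 0.1) with it. Averaged over the 4 days, which sets 20 ipsilateral libraries against 20 contralateral ones, 3 of the 10 passed, where 38.2% of all tested genes passed.

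VWF was lower in the ipsilateral horn, with a log2 difference of -0.51 ± 0.12 (a fold of 0.702, adjusted p = 0.000941 by edgeR). Its ipsilateral libraries ranged over 50.3, 124 and 187 CPM (lowest, median and highest), against 70.0, 164 and 316 CPM for the contralateral ones. By label it was lower on the ipsilateral side in 17 of 20 heifers. This count and the heifer counts below match libraries by tag. The libraries of a tag deviated together in only 5 of 20 tags, so these counts are descriptions and no separate support. CDH5 was lower too, at -0.29 ± 0.09 (a fold of 0.819, adjusted p = 0.0106), in 14 of 20 heifers, with ipsilateral libraries at 22.7, 36.1 and 44.8 CPM, against contralateral ones at 24.03, 41.4 and 58.6 CPM. ANGPT2 was higher by 0.35 ± 0.12 (a fold of 1.28, adjusted p = 0.0153), in 16 of 20 heifers, with 7.87, 15.4 and 27.5 CPM ipsilateral, against 6.12, 13.0 and 18.7 CPM contralateral. The 2 horns overlap widely for each of these genes. These calls were kept without each of the 40 libraries in turn (adjusted p up to 0.00204, 0.0224 and 0.0337). With the share of reads in microRNA and tRNA genes as a covariate, which was 0.00988% to 0.0175% in ipsilateral and 0.00819% to 0.0147% in contralateral libraries, none of the 3 passed (VWF -0.33, adjusted p = 0.395; CDH5 -0.14, adjusted p = 0.665; ANGPT2 0.37, adjusted p = 0.295 by edgeR). This share moves with the horn, and its part in these differences was not tested beyond that fit. It also moves with the day. In the ipsilateral horn it was 0.00988% to 0.0122% on day 5, against 0.0139% to 0.0175% on day 16. In the contralateral horn it was 0.00819% to 0.0094% on day 5, against 0.0113% to 0.0147% on day 16. Its part in the day changes was not tested. PECAM1 was at -0.18 ± 0.11 (adjusted p = 0.179 by edgeR) and lower on the ipsilateral side in 13 of 20 heifers. KDR, FLT1, VEGFA, EMCN, ERG and TEK differed between the horns by -0.06 to 0.09 on average, with standard errors of 0.08 to 0.12.

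**Figure D3:**
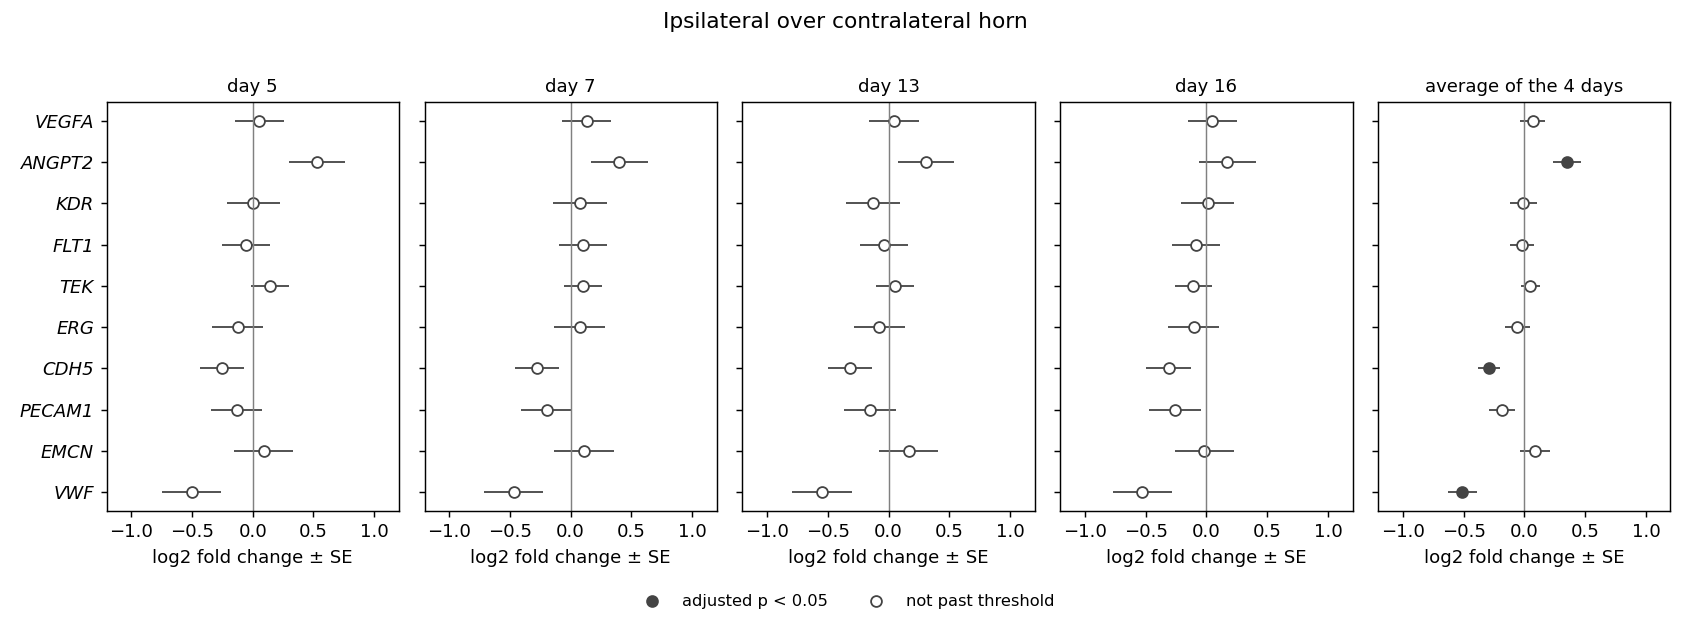
Log2 fold change of the ipsilateral over the contralateral horn with its standard error (x axis) for each gene, on each day and as the average of the 4 days, with filled points where the adjusted p was below 0.05. Only the average has filled points, for VWF and CDH5 to the left of 0 and ANGPT2 to the right.

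Whether the changes between days differ from horn to horn was tested directly. For no gene of 20356 did the test of a horn difference that changes with day pass (0% by edgeR, and none of the 10 by DESeq2). At an unadjusted p below 0.05 there were 572 genes, none of them one of the 10. The largest horn difference in a change between adjacent days among the 10 genes was -0.21 on the log2 scale, and none was at an unadjusted p below 0.05. The standard errors of these differences were 0.22 to 0.34, so the horns are not shown to follow the same course. VEGFA in one horn and TEK in the other therefore are not shown to differ by horn for day 13 against day 7.

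Ratios to CDH5, counted in the same library, do not depend on scaling, but a ratio between horns also carries the horn difference of CDH5 itself, which was -0.25 on day 5, -0.28 on day 7 and -0.32 on day 13 on the log2 scale. For 8 genes and 10 comparisons, 80 exact two-sided permutation tests of 5 against 5 libraries were run, in which the smallest possible p is 0.00794 and 0 passed the adjustment (25 were at an unadjusted p below 0.05). No comparison can pass this adjustment unless many lie at or near the smallest p together, so the 0 does not show steady ratios. KDR per CDH5 read was 6.91 ± 1.01 on day 13 in the ipsilateral horn, against 4.85 ± 0.982 on day 7, and 6.09 ± 1.198 on day 13 in the contralateral horn, against 3.896 ± 0.853 on day 7 (SD, n = 5 each). As mean log2 ratios the differences were 0.52 and 0.65 (exact permutation p = 0.0238 and 0.0159, adjusted p = 0.147 and 0.127). ANGPT2 per CDH5 read was 0.366 ± 0.102 on ipsilateral day 7, against 0.596 ± 0.0941 on ipsilateral day 5, without overlap (exact permutation p = 0.00794, adjusted p = 0.127). On day 5 it was 0.596 ± 0.0941 in the ipsilateral horn, against 0.354 ± 0.0983 in the contralateral horn, also without overlap (the same p and adjusted p by the exact permutation test). FLT1 per CDH5 read on day 7 was 2.18 ± 0.146 in the ipsilateral horn, against 1.70 ± 0.232 in the contralateral horn, again without overlap and with the same exact permutation p and adjusted p. That log2 gap was 0.36, while FLT1 itself differed by 0.10 between the horns on day 7 (adjusted p = 0.847 by edgeR). EMCN per CDH5 read on day 13 was 3.33 ± 0.467 in the ipsilateral horn, against 2.39 ± 0.133 in the contralateral horn, the remaining comparison without overlap (log2 gap 0.47, the same exact permutation p and adjusted p), while EMCN itself differed by 0.17 (adjusted p = 0.825 by edgeR). TEK per CDH5 read had means of 1.84, 2.16, 2.48 and 2.63 in the ipsilateral and 1.40, 1.70, 1.91 and 2.29 in the contralateral horn on days 5, 7, 13 and 16.

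**Figure D4:**
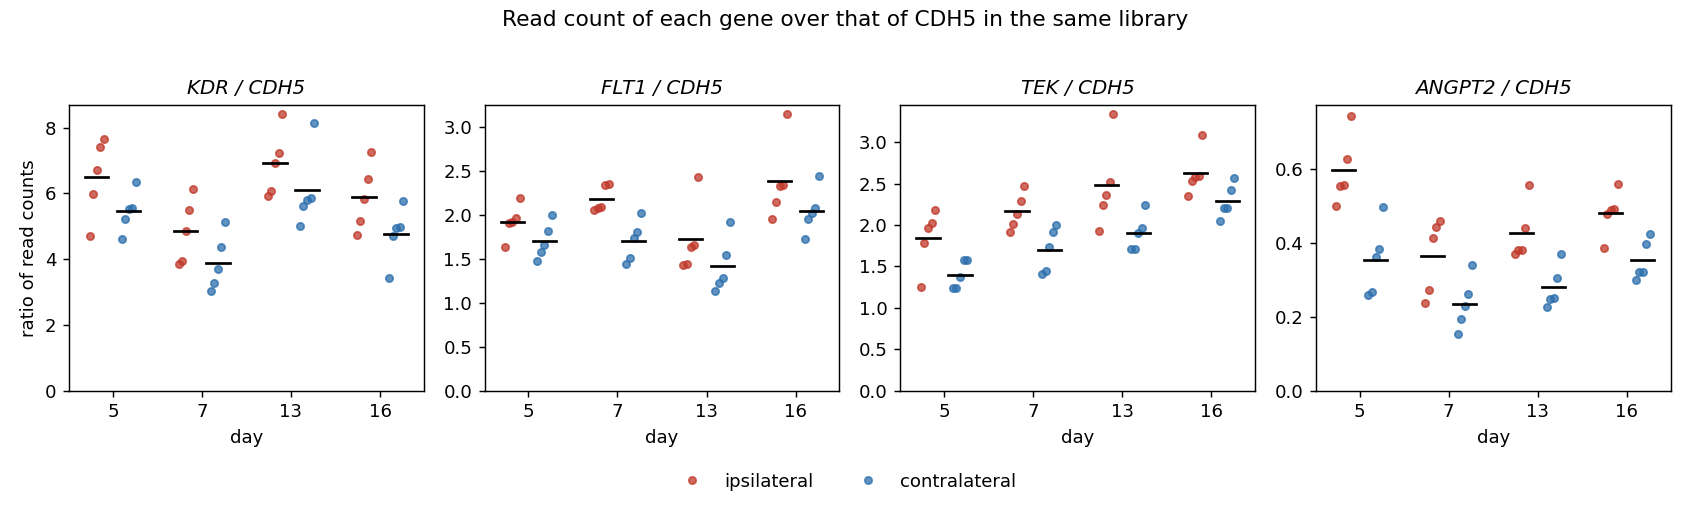
Ratio of the read count of KDR, FLT1, TEK and ANGPT2 to that of CDH5 in the same library (linear axis from 0), by day and horn (red, ipsilateral; blue, contralateral; black bars, group means of 5 libraries). The KDR ratio is lowest on day 7 and highest on day 13, the TEK ratio is highest on day 16, and the ANGPT2 ratio is lowest on day 7.

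Within groups, 9 of the 10 genes were positively correlated with each other, and VEGFA had r near 0 or below with all of them. After the group mean was taken off, Pearson's r over 39 libraries (all but 5-137) had a median between 0.55 and 0.76 for each of the 9 with the other 8, and was highest for EMCN with ERG (0.895). VEGFA had r between -0.257 and 0.0857 with the other 9. These are descriptions over libraries that share their scaling and their tissue pieces. In each of the 8 groups a single library was lowest for at least 6 of the 10 genes. In the ipsilateral horn these were 8-1350 on day 5 (8 genes), 5-117 on day 7 (7), 5-167 on day 13 (8) and 2-068 on day 16 (7). In the contralateral horn they were 8-1350 on day 5 (6 genes), 6-338 on day 7 (7), 5-140 on day 13 (9) and 3-155 on day 16 (9). The ipsilateral library 8-1350 had the highest smooth muscle sum of its group, as given above, and 2-068 in the ipsilateral and 5-140, 3-155 and 8-1350 in the contralateral horn had the lowest of theirs. What part tissue makeup has in these low values was not tested.

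**Figure D5:**
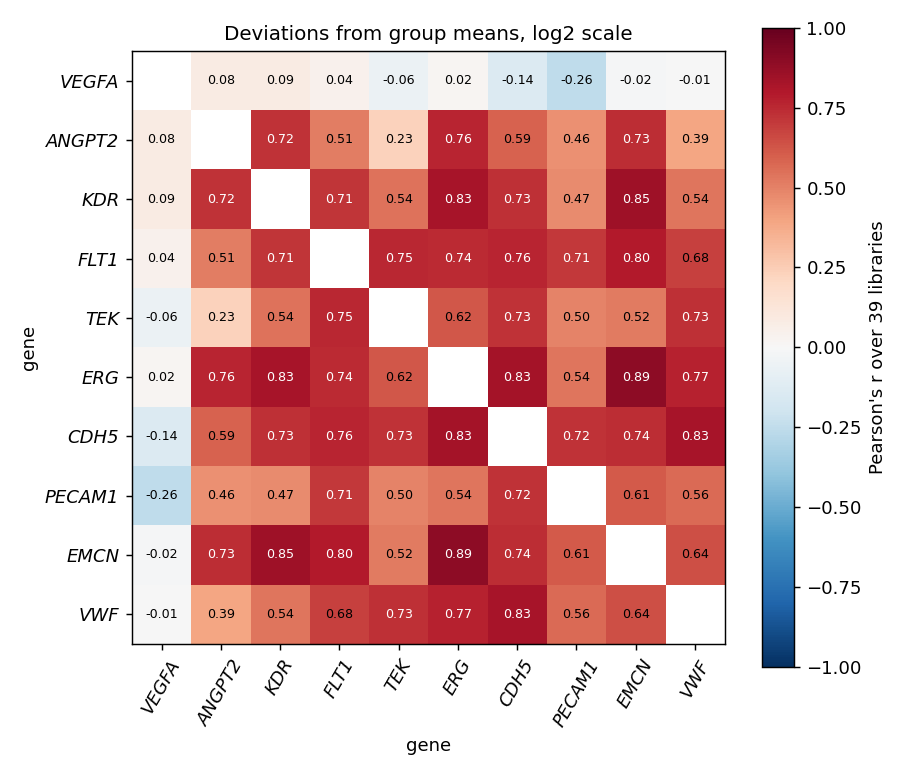
Pearson's r between pairs of genes across 39 libraries, after the group mean of each gene was taken off its log2 CPM (color scale from -1 to 1, value printed in each cell, gene on both axes). VEGFA is pale against all others, and the remaining genes are positively correlated with each other.

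The 3 genes of the whole table that varied most like each of the 10 within groups were named by the same r. For KDR these were ELTD1, an adhesion G protein-coupled receptor of endothelium (r = 0.890), ANO3 (0.861) and NRP1, a co-receptor for VEGF (0.859). FLT1 was nearest to CXHXorf36 (0.866), BCL6B (0.861) and ECSCR (0.838). VEGFA was nearest to its own second entry (0.919), PLEKHG2 (0.791) and APC2 (0.779). The nearest to TEK were ARHGAP31 (0.831), PLVAP, the protein of endothelial fenestrae (0.828), and GPR116 (0.821). ANGPT2 was nearest to NRP1 (0.781), ELTD1 (0.762) and ERG (0.758). ERG was nearest to EMCN (0.895), the junction protein ESAM (0.881) and C28H10orf54 (0.879), and EMCN to ERG, ESAM (0.854) and KDR (0.845). For CDH5 these were LOC100336251 (0.922), ESAM (0.846) and COLGALT2 (0.838), and for VWF they were STARD8 (0.855), ESAM (0.850) and LOC100336251 (0.849). PECAM1 was nearest to CDH13 (0.826), the angiopoietin co-receptor TIE1 (0.796) and DOC2B (0.792). With 5-137 included, these values lay between 0.758 and 0.917.

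Around these 10 genes, 26 others of the VEGF, angiopoietin and Notch pathways were listed. For day 13 against day 7, 5 were higher and 2 lower in the ipsilateral horn, and 5 higher and 0 lower in the contralateral horn, beside 28.6% and 33.5% of all tested genes in either direction. These counts are no larger than those shares would give. EPAS1, the hypoxia-inducible factor HIF-2 alpha of endothelium, averaged 323 ± 92.1 CPM on ipsilateral day 13, against 162 ± 37.05 CPM on day 7, and 447 ± 120 CPM on contralateral day 13, against 184 ± 57.3 CPM on day 7 (SD, n = 5 each). Its differences were 1.01 ± 0.24 and 1.28 ± 0.22 (adjusted p = 0.00345 and 0.000134 by edgeR). DLL4, the Notch ligand of sprouting tip cells, rose by 0.62 ± 0.17 and 0.90 ± 0.15, and PTPRB (VE-PTP), a phosphatase that acts on TEK, by 0.66 ± 0.12 and 0.86 ± 0.15 (ipsilateral and contralateral, adjusted p up to 0.00842 by edgeR). All 3 kept these calls without each library in turn. HIF1A rose by 0.80 ± 0.17 in the contralateral horn (adjusted p = 0.000997).

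For day 7 against day 5 the same list gave 4 higher and 4 lower in the ipsilateral and 1 higher and 2 lower in the contralateral horn, beside 28.8% and 20.4% of all tested genes. APLN, the ligand of the apelin receptor on sprouting vessels, averaged 5.42 ± 2.02 CPM on ipsilateral day 7, against 18.2 ± 14.1 CPM on day 5, and 7.09 ± 2.16 CPM on contralateral day 7, against 19.98 ± 11.4 CPM on day 5. It fell by 1.75 ± 0.35 and 1.49 ± 0.29 on the log2 scale (adjusted p = 0.00138 and 0.00163 by edgeR). VEGFC, a growth factor of lymphatic vessels, fell by 0.95 ± 0.29 and 0.97 ± 0.27 (adjusted p = 0.0202 and 0.0166). It lost the call without ipsilateral day 7 library 6-338 or 4-064 or day 5 library 4-184, or contralateral day 7 library 4-064 (adjusted p up to 0.0635). NRP2, a receptor for VEGFC, fell by 1.17 ± 0.36 in the ipsilateral horn (adjusted p = 0.0196), but not without 8-1350 (adjusted p = 0.0569). Over this interval 6 of 8 smooth muscle and 6 of 8 stromal markers also fell in the ipsilateral horn, with a median log2 change of -1.66 and -0.71, and 2 and 4 of 8 in the contralateral horn. These values include ipsilateral day 5 library 8-1350, with a smooth muscle sum of 3290 CPM. The other ipsilateral day 5 libraries held 569 to 715 CPM, against 260 to 462 CPM on day 7. The part of both marker lists in the vascular values was not tested.

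Of 28 further endothelial markers, 8 were higher and 2 lower on day 13 against day 7 in the ipsilateral horn, and 6 higher and 1 lower in the contralateral horn, again beside 28.6% and 33.5% of all tested genes, to which these counts are close. Their median log2 changes were 0.27 and 0.28. MYCT1 rose by 0.93 ± 0.22 and 0.93 ± 0.19, and ELTD1 by 0.83 ± 0.24 and 1.02 ± 0.19 (adjusted p up to 0.0141 by edgeR). ELTD1 lost the ipsilateral call without library 4-1314 (adjusted p = 0.0526). PLVAP moved the other way in the ipsilateral horn, where it fell by 0.65 ± 0.22 (adjusted p = 0.0333), a call lost without day 7 library 2-1337 or 2-371 or day 13 library 5-140, 5-167 or 6-203 (adjusted p up to 0.111). SELE, an adhesion molecule of activated endothelium, was counted at low levels, at 1.43 ± 1.14 CPM on ipsilateral day 13, against 0.131 ± 0.096 CPM on day 7. It was at 0 in 4 libraries. In the other day comparisons SELE was lower on the later day (ipsilateral and contralateral, adjusted p up to 0.0334 by edgeR). The log2 changes were -3.35 ± 0.86 and -3.68 ± 0.68 for day 7 against day 5, and -4.63 ± 0.95 and -3.71 ± 0.72 for day 16 against day 13. For day 16 against day 5 they were -4.54 ± 0.95 and -4.41 ± 0.72.

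For day 16 against day 5, 8 genes of the pathway list were higher and 5 lower in the ipsilateral horn, and 6 higher and 4 lower in the contralateral horn, beside 38.9% and 43.8% of all tested genes. EPAS1 was higher by 2.11 ± 0.25 and 1.98 ± 0.22 (adjusted p = 4.55e-06 and 7.6e-07 by edgeR) and APLN lower, by a log2 change of -1.25 ± 0.34 and -1.06 ± 0.29 (adjusted p = 0.00757 and 0.0059). Among the other endothelial markers 4 were higher and 2 lower in the ipsilateral horn and 4 higher and 3 lower in the contralateral horn, fewer than those shares would give, including SELP (P-selectin), lower at -1.21 ± 0.27 and -1.18 ± 0.26 on the log2 scale (adjusted p = 0.00161 and 0.00131). For day 16 against day 13, where none of the 10 passed, NOTCH4, a Notch receptor of endothelium, was the 1 pathway gene that did in each horn (0.87 ± 0.16 and 0.91 ± 0.21, adjusted p = 0.022 and 0.03 by edgeR). It lost that call without ipsilateral library 5-140, 4-1314, 6-203 or 8-245, or contralateral library 2-068, 7-107, 8-245, 4-1314, 5-140 or 5-167 (adjusted p up to 0.0825).

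Between the horns, averaged over days, 2 of the 26 pathway genes were higher and 5 lower on the ipsilateral side, and of the 28 other endothelial markers 2 were higher and 4 lower, both lists below the 38.2% of all tested genes. CALCRL, the receptor for adrenomedullin, was higher by 0.48 ± 0.09, SEMA3A by 0.84 ± 0.17 and PTPRB by 0.28 ± 0.07, while SEMA3F was lower, at -0.33 ± 0.07, and so was ENG (endoglin), at -0.38 ± 0.11 on the log2 scale (adjusted p up to 0.00377 by edgeR). With the microRNA and tRNA share as a covariate, SEMA3F alone of these 5 passed (-0.46, adjusted p = 0.00952 by edgeR). CALCRL and PTPRB missed the threshold with nearly the same difference and a wider error, at 0.46 ± 0.16 and 0.30 ± 0.12 (adjusted p = 0.0543 and 0.120), whereas SEMA3A came to 0.40 ± 0.32 and ENG to -0.04 ± 0.18 (adjusted p = 0.489 and 0.938). Among 10 pericyte markers, which mark the cells that wrap small vessels, RGS5 was higher by 0.50 ± 0.12 and ABCC9 by 0.42 ± 0.12, and NOTCH3 was lower, at -0.36 ± 0.08, as was CSPG4, at -0.42 ± 0.14 (adjusted p up to 0.0169). With the covariate NOTCH3 alone of these 4 passed (-0.45, adjusted p = 0.0436), RGS5 was at 0.56 ± 0.23 and ABCC9 at 0.44 ± 0.23 (adjusted p = 0.115 and 0.251), and CSPG4 came to -0.03 ± 0.26 (adjusted p = 0.974). Over the same average, 6 of 9 epithelial and 4 of 8 stromal markers were lower and 0 higher on the ipsilateral side, with KRT8 at -0.41 ± 0.07 and COL1A1 at -0.60 ± 0.12 (adjusted p = 1.69e-05 and 9.04e-05). With the covariate KRT8 was at -0.51 ± 0.12 (adjusted p = 0.00698) and COL1A1 at -0.34 ± 0.21 (adjusted p = 0.355). The part of tissue makeup in the horn differences of VWF, CDH5 and ANGPT2 was not tested.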

How the data were processed

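The deposited table holds raw counts per gene, made by the authors with FastQC, HISAT2 (genome build UMD3.1) and featureCounts, per the submitters' processing notes; tool versions are not given. A stranded TruSeq mRNA kit was used, per the labels' protocols. The 1 mitochondrial row (0.0812% to 0.578% of reads) was kept out, and 27 names turned into dates were not used. Samples were grouped by the day and horn in their labels. Titles carry a tag, read here as that of the heifer, but the libraries of a tag deviated together (r above 0.1) in 5 of 20 tags (range -0.311 to 0.773). The main tests therefore did not use the tags as pairs, and n counts libraries. Counts of heifers, the horns summed per heifer and the replicate block do rest on the tags.

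With edgeR 4.0.16, counts were filtered (filterByExpr), scaled with TMM and fitted with quasi-likelihood models: 20 libraries of a horn for day changes (19733 and 19559 genes) and all 40 libraries for horn differences (20356 genes), each p adjusted by Benjamini-Hochberg over all genes tested. The standard error is the log2 fold change over the square root of F. Replicates of a group are taken as separate heifers, and 0 columns of the table were identical. Alternatives for day changes and horn differences were DESeq2 1.42.0, RLE scaling, no filter and each library left out. The horns were summed per heifer for day changes only. The heifer as a replicate block and a microRNA and tRNA covariate were used for horn differences only. For ratios the alternatives were a pseudocount of 1 (0.5 in the main test), PECAM1 as denominator and each library left out. Day 16 against day 5 was added after the group means had been seen. The fits were tested on simulated data before use. The members and gene lists were chosen with earlier results of these data known. Named from each list were at most 4 genes per comparison, those with the largest changes that passed, and for likeness the nearest genes by r. A value within 2 standard errors of 0 that did not pass was taken as having no direction that could reverse. VEGFD and ADGRL4 were matched as FIGF and ELTD1 through the synonyms of RefSeq's bovine gene table. No sequence or coordinate is given, since no genome of this build was used here.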

Additional observations from a re-analysis of the deposited data

Results flagged for a closer look

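In 5 of 80 gene-by-group sets of 5 libraries, 1 library stood further from its neighbour than Dixon's criterion allows, and chance flags about 1 in 20. EMCN was at 49.1 CPM in ipsilateral day 5 library 8-1350, against 96.3 to 115 CPM in the other 4, and at 81.2 CPM in ipsilateral day 13 library 5-167, against 132 to 149 CPM. PECAM1 was at 63.2 CPM in contralateral day 5 library 7-300, against 40.6 to 45.9 CPM, and at 43.7 CPM in contralateral day 16 library 3-155, against 76.5 to 84.2 CPM. ANGPT2 was at 25.001 CPM in ipsilateral day 13 library 4-1314, against 11.6 to 15.3 CPM. Other vascular genes were extreme in the same libraries. Both 8-1350 and 5-167 were lowest of their group for 8 of the 10 genes and 3-155 for 9, and 7-300 was highest for 7.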

How the results depend on the processing

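Of 20 gene-level calls on the 10 genes, 9 were kept without each library in turn and 6 under all alternatives run for their comparison. The 20 include 4 calls in each horn for day 16 against day 5, which was added after the group means had been seen. The calls of TEK and VWF for that comparison, in both horns, are among the 9. No called value changed sign, and 41 of 110 values that did not pass changed sign under some setting. With the heifer as a replicate block, the same 3 genes (VWF, CDH5 and ANGPT2) passed for the horn average, and no call of the 10 genes in the horn comparisons changed. For day 13 against day 7 in the ipsilateral horn, 2 passed with RLE scaling and 2 with no filter, in place of 4. With the horns summed per heifer, which joins both horns, 2 passed for day 7 against day 5 (1 ipsilateral and 0 contralateral in the separate fits), 8 for day 13 against day 7 (4 and 4) and 9 for any change in the ipsilateral horn (5). DESeq2 called 1 in place of 0 for day 7 against day 5 and 6 in place of 4 for day 13 against day 7 in the contralateral horn, and in the ipsilateral horn 3 in place of 4 for day 16 against day 5 and 6 in place of 5 for any change. Its other counts were the same, and the microRNA and tRNA covariate left 0 of 3 horn-average calls. Without single libraries, the number that passed ranged from 0 to 2 for day 7 against day 5 in each horn, from 0 to 5 (ipsilateral) and 2 to 6 (contralateral) for day 13 against day 7, from 2 to 4 and 2 to 5 for day 16 against day 5, from 3 to 7 and 4 to 9 for any change, and from 0 to 1 for the horns on day 5. For these alternative settings the shares of all tested genes are not given beside the counts. The counts are therefore no result particular to the 10 genes. Of 177 calls on other listed genes, day 16 against day 5 included, 107 were kept under all alternatives run for their comparison. With 5 libraries a group, a gene that did not pass is not shown to be steady, and the lowest member counts (ANGPT2, from 177 reads) carry the largest counting error.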
